A study of Homo sapiens with 12 samples.

Results

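RD is an established human cell line of embryonal rhabdomyosarcoma, the fusion-negative form of a soft-tissue tumour whose cells resemble skeletal muscle precursors that stopped short of becoming fibres. The state described is that of RD cells before induction: the 6 libraries grown without doxycycline (Dox), read as 1 cell state, out of 12 libraries in the series. These cells carry a Dox-inducible hairpin against NT5E, the gene for the surface enzyme CD73, in 2 constructs titled ish and ish2, with 3 libraries each. Per the labels, 500000 cells were seeded, left for 24 h and then kept for 96 h in medium for the inducible system with no Dox, and the labels call this state the control. The other 6 libraries had 10 ng/mL Dox for the same 96 h. The labels do not say whether the replicates were separate cultures, so the spread between them may be technical, and there is no parental line without a hairpin among the groups used.

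Skeletal muscle cells are specified by PAX3 and PAX7 and by the MyoD family of transcription factors, which bind short DNA motifs called E-boxes and switch on contractile, junction and fusion genes. Cells of a rhabdomyosarcoma express MYOD1 and desmin, which pathologists use to recognise the tumour, yet keep dividing. Insulin-like growth factor 2 and fibroblast growth factor receptor 4 are growth signals known in this tumour.

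Levels are given on 2 scales. CPM are gene counts scaled to library size, and TPM are counts divided by a gene's summed exon length and scaled to the same total in each library, so that genes can be compared with each other. A gene is called expressed at 1 CPM or more in each of the 6 libraries, silent at 0.1 CPM or less in each, and low in between. Gene counts ran from 26566603 to 31926254 per library, so that 1 CPM stood for 26.5 to 32.1 counts. A count of 0 allows up to 3 counts, or 0.0934 to 0.113 CPM, which covers counting error only. Silent means measured at no more than about that level in each library, and a silent gene with some counts may lie above it. In bulk RNA, fewer cells with a transcript and less of it per cell cannot be told apart. Of 26485 genes in the table, 12862 were expressed (48.6%), 4244 were low and 9379 were silent (35.4%), of which 6224 had no count in any of the 6 libraries. Among 19099 protein-coding genes 11991 were expressed (62.8%). The 10 highest genes held 3.23 to 3.38% of counts and the 1000 highest 45.1 to 45.5%. Reads that aligned to several places made up 7.24 to 9.64% per library, highest in ish replicate 3, and their part in the level of single genes was not tested.

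The 4 genes that mark the line were all expressed. Desmin (DES), the intermediate filament protein of muscle, stood at 417, 396 and 411 TPM in the ish libraries and 425, 423 and 426 TPM in the ish2 libraries. FGFR4, a receptor tyrosine kinase, stood at 419, 391 and 401 TPM in the ish libraries and 369, 376 and 361 TPM in the ish2 libraries. The values lay in a narrow band within each construct, and for both genes the constructs did not overlap, with DES higher in ish2 and FGFR4 higher in ish. Such non-overlap of 3 and 3 libraries held for 41.9% of all expressed genes, so here and below it does not set a gene apart. IGF2, a secreted growth factor, stood at 326, 344 and 333 TPM in the ish libraries and 325, 302 and 311 TPM in the ish2 libraries. MYOD1, the transcription factor that starts the muscle programme, stood at 191, 177 and 192 TPM in the ish libraries and 224, 218 and 231 TPM in the ish2 libraries. MYOD1 was higher in every ish2 library than in every ish library, and IGF2 was lower in every ish2 library, with the nearest libraries less than 1 TPM apart. By mean TPM, DES ranked 330, FGFR4 366, IGF2 460 and MYOD1 868 among all genes with a length. With RefSeq-linked transcript lengths in place of all exons, IGF2 ranked 213, FGFR4 424, DES 472 and MYOD1 1182, so the order of the 4 depends on the length used. All 4 markers were thus expressed in each library. They were chosen with earlier results of these data known, so this is no independent check of the cell type.

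The highest genes were those of protein synthesis. Per length, 22 of the 30 highest were ribosomal protein genes, led by RPS18 at 8705 TPM, RPL7A at 8534 TPM and RPL12 at 8256 TPM. The other 8 were TMSB10, GAPDH, ACTB, EEF2, EEF1A1, S100A11, ACTG1 and RACK1 (listed as GNB2L1). By CPM the order was led by EEF1A1, EEF2, GAPDH and COL3A1, and 11 of 30 were ribosomal protein genes. The others by CPM included TUBB, GNAS, FN1, HSP90AB1, NCL, COL4A1, MEST, NES, HSP90B1, DUSP6, LAMB1 and COL5A2. Ribosomal protein genes held 5.91 to 6.88% of counts per library. The 70 genes at a mean of 1000 CPM or more held 11.5% of counts, the 2459 genes from 100 to 1000 CPM held 54.9% and the 7576 genes from 10 to 100 CPM held 32.2%.

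**Figure D1:**
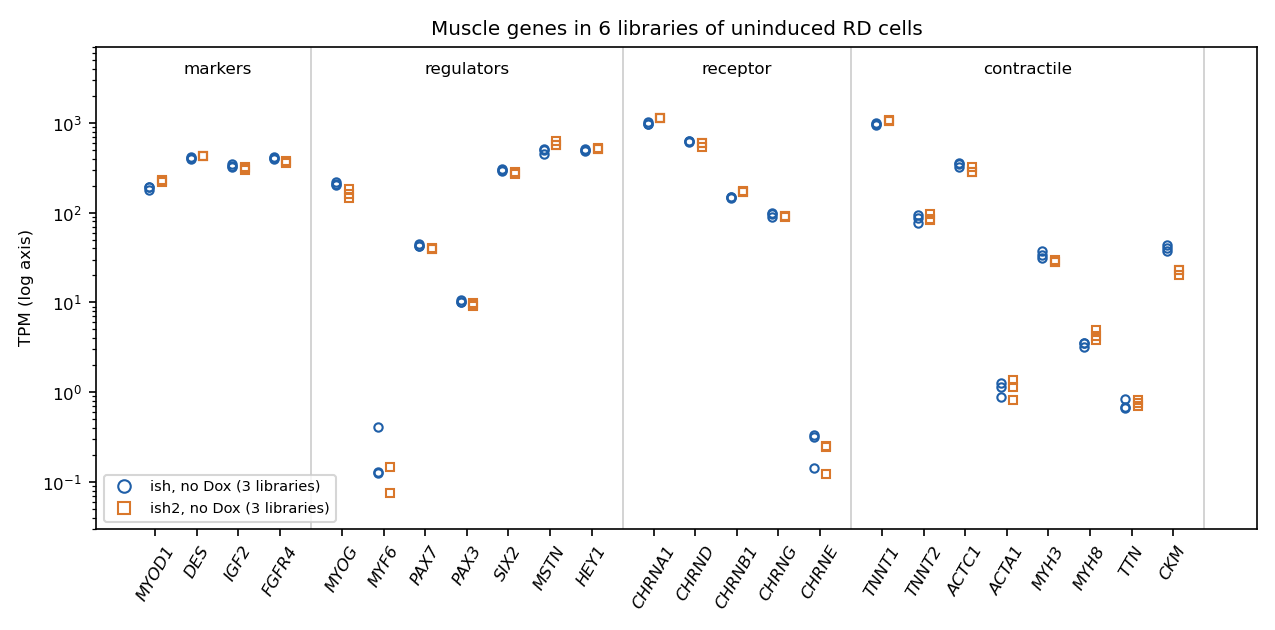
Level of muscle genes (TPM, log axis) in each of the 6 uninduced libraries, circles for ish and squares for ish2; MYF6 was at 0 in 1 library, which a log axis cannot show. MYOD1, MYOG and the receptor subunits CHRNA1 and CHRND lie between 146 and 1141 TPM in all 6 libraries, whereas MYF6 and CHRNE lie below 0.41 TPM.

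Within the MyoD family, MYOD1 and MYOG were expressed while MYF6 and MYF5 were not. MYOG, which drives the later step of differentiation, stood at 217, 202 and 206 TPM in the ish libraries and 146, 161 and 185 TPM in the ish2 libraries. The ish libraries were all above the ish2 libraries for MYOG, the reverse of MYOD1, so that per length MYOD1 exceeded MYOG in the 3 ish2 libraries only (ratio 0.878 to 1.53 over the 6). MYF6, a factor of late muscle, was low at a mean of 0.148 TPM. MYF5, which acts beside MYOD1 in early precursors, had no count in any of the 6 libraries. The E proteins that pair with MyoD factors were present, with TCF3 at 178 TPM, TCF12 at 88.6 TPM and TCF4 at 29.96 TPM. Of the MEF2 factors that act with them, MEF2D (77.2 TPM), MEF2A (41.1 TPM) and MEF2C (13.8 TPM) were expressed and MEF2B was silent.

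Of 17 factors of muscle progenitors, 12 were expressed (70.6%, beside 62.8% of all protein-coding genes), 3 were low and 2 were silent. PAX7, the factor of adult muscle stem cells, stood at 39.4 to 44.6 TPM over the 6 libraries and PAX3, its embryonic relative, at 9.13 to 10.7 TPM. Per length PAX7 exceeded PAX3 by 3.93 to 4.47 times in the 6 libraries. Among the sine oculis homeobox factors, which act upstream of the MyoD family, SIX2 stood at 271 to 306 TPM, SIX4 stood at 42.3 TPM and SIX5 at 19.5 TPM. Their cofactors differed, with EYA4 at 59.4 TPM, EYA3 at 38.8 TPM and EYA1 at 18.5 TPM expressed, EYA2 low and DACH1 silent. PITX3 reached 153 TPM. LBX1, a factor of migrating limb muscle precursors, was expressed at 11.7 TPM, MEOX1 was low and MEOX2 was silent.

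Of 15 genes that restrain muscle differentiation, 12 were expressed (80%, beside 62.8% of all protein-coding genes). MSTN, which encodes myostatin, a secreted inhibitor of muscle growth, stood at 453 to 636 TPM. HEY1, a repressor downstream of NOTCH, stood at 491 to 528 TPM and its relative HEYL at 109.7 to 117 TPM. Per length MSTN exceeded MYOD1 by 2.54 to 2.75 times in the 6 libraries. Musculin (MSC, 267 TPM), ID3 (185 TPM) and SNAI2 (119.5 TPM) followed. TWIST1 and TWIST2, inhibitors of MyoD proteins known from mesenchymal cells, had no count in any of the 6 libraries, and ID4 was low.

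The nicotinic acetylcholine receptor of muscle is a channel built of subunits alpha, beta, delta and either gamma, in fetal muscle, or epsilon, in adult muscle. Its alpha and delta subunit genes, CHRNA1 and CHRND, were among the highest muscle genes of the line. Promoters of both, of the low CHRNE and of MYOG are shown because E-boxes of these genes are a textbook target of MyoD proteins. Each is 250 bases before to 50 after a RefSeq start (GRCh38.p14), read along the gene's strand; capitals mark CAGCTG, and CAGGTG on either strand (CACCTG).

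CHRNA1 (chr2:174764423-174764722, minus strand): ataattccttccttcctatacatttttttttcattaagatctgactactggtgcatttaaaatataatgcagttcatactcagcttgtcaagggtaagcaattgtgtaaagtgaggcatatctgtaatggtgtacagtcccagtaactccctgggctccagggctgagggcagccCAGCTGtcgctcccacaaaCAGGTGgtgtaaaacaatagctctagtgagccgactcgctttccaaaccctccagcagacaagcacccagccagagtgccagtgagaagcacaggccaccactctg

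CHRND (chr2:232525910-232526209, plus strand): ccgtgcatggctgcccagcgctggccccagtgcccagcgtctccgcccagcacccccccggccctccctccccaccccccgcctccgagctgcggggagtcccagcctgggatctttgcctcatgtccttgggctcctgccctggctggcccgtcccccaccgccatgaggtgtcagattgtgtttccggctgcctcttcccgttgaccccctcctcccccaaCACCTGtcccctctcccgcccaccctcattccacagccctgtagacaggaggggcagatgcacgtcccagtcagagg

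CHRNE (chr17:4903049-4903348, minus strand): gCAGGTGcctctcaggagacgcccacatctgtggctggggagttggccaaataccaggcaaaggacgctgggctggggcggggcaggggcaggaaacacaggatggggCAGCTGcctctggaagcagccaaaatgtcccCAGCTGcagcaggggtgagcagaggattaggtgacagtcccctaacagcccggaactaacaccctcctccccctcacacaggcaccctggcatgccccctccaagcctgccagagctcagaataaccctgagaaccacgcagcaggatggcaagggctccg

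MYOG (chr1:203085963-203086262, minus strand): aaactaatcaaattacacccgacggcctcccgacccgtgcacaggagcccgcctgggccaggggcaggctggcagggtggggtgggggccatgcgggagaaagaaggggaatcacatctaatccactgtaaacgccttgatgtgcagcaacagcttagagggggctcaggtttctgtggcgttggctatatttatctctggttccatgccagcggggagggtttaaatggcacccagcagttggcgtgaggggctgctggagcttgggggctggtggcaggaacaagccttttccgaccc

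CHRNA1, the alpha subunit, stood at 1011, 978 and 979.8 TPM in the ish libraries and 1141, 1134 and 1125 TPM in the ish2 libraries. CHRND, the delta subunit, stood at 633, 609.7 and 628 TPM in the ish libraries and 590.2, 597 and 543 TPM in the ish2 libraries. CHRNA1 was higher in each ish2 library than in each ish library and CHRND the other way. The beta subunit gene CHRNB1 stood at 145 to 175 TPM and the fetal CHRNG at 88.9 to 100.3 TPM, while the adult CHRNE was low at 0.122 to 0.332 TPM. Per length CHRNG exceeded CHRNE by 271 to 730 times in the 6 libraries, so the subunit gene of the fetal form stood far above that of the adult form. The windows of CHRNA1 and CHRND hold 2 and 1 marked E-boxes, that of CHRNE holds 3 and that of MYOG none. Other forms of the E-box were not marked or counted, such as cagttg in the MYOG window. A match is a description of letters, and of the marked forms the low gene held the most. Among all 35116 promoter windows, 17.9% hold CAGCTG and 20.6% hold CAGGTG on either strand.

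Beside the receptor, 13 of 14 junction and fusion genes measured were expressed (92.9%, against 62.8% of all protein-coding genes). RAPSN, which clusters the receptor, stood at 155 TPM and MUSK, the kinase that organises the junction, at 32.9 TPM. CDH15, the cadherin of muscle, stood at 191 to 216 TPM and NCAM1 at 60.4 to 67.6 TPM. The membrane repair protein gene DYSF stood at 52.03 TPM and the integrin gene ITGA7 at 76.8 TPM. MYMK (listed under the older symbol TMEM8C), which encodes the fusion protein myomaker, was expressed at 13.4 to 20.6 TPM; CAV3, the muscle caveolin, at 8.29 TPM. MYMX is not among the symbols of the table and was not analysed here.

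Contractile genes were on in part: of 65 listed, nonmuscle forms included, 46 were expressed (70.8%, beside 62.8% of all protein-coding genes), 11 low and 8 silent. All 8 troponin genes were expressed, from TNNT3 at 7.14 TPM to TNNT1, the slow troponin T, at 962, 985 and 955 TPM in the ish libraries and 1048, 1064 and 1051 TPM in the ish2 libraries. Per length TNNT1 exceeded the cardiac and embryonic TNNT2 by 10.3 to 12.8 times and the fast TNNT3 by 104 to 183 times. TNNC2 stood at 100.03 TPM, TNNC1 at 35.2 TPM, TNNI1 at 31.9 TPM, TNNI3 at 13.3 TPM and TNNI2 at 8.45 TPM. All 4 tropomyosins were expressed, with TPM2 at 767 TPM, TPM4 at 587 TPM, TPM3 at 312 TPM and TPM1 at 40.3 TPM.

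Actin and myosin genes split by developmental form. The cardiac alpha-actin ACTC1, which is also the form of embryonic skeletal muscle, stood at 355, 321 and 347 TPM in the ish libraries and 284, 285 and 325 TPM in the ish2 libraries. The adult skeletal ACTA1 was low at 0.810 to 1.38 TPM, so that per length ACTC1 exceeded it by 235 to 398 times in the 6 libraries. ACTA2, the smooth muscle actin, had no count in any of the 6 libraries, ACTG2 was low, and the cytoplasmic ACTB and ACTG1 stood at 5392 and 2801 TPM. Among the myosin heavy chains, the embryonic MYH3 stood at 28.02 to 37.3 TPM and the perinatal MYH8 at 3.14 to 4.88 TPM. The adult fast MYH1 and MYH4 were silent, and the fast MYH2 (0.297 TPM) and slow MYH7 (0.0796 TPM) were low. The nonmuscle MYH9, MYH10 and MYH14 were expressed at 239.7, 145 and 26.4 TPM.

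The highest light chains of muscle stood above its heavy chains per length. MYL11, the fast regulatory chain listed as MYLPF, stood at 723, 655 and 705 TPM in the ish libraries and 434, 478 and 473 TPM in the ish2 libraries. MYL1, the fast essential chain, stood at 249 to 287 TPM, MYL6 at 844 TPM, MYL6B at 426 TPM and the embryonic MYL4 at 26.9 TPM. The ventricular MYL2 and MYL3 were silent, and the atrial MYL7 had no count. In the giant and Z-disc group, nebulin (NEB, 46.6 TPM), the actinins ACTN2 (23.1 TPM) and ACTN3 (17.3 TPM) and dystrophin (DMD, 16.5 TPM) were expressed. Titin (TTN), the longest of these genes, was expressed by CPM but stood at only 0.673 to 0.848 TPM, and TCAP and CSRP3 were low.

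Genes associated with the 2 forms of rhabdomyosarcoma were read as a check on the line. All 5 genes listed for fusion-negative tumours were expressed, led by IGF2 and by HMGA2, an architectural chromatin protein of embryonic tissue, at 272, 279.7 and 276 TPM in the ish libraries and 239, 239 and 230.4 TPM in the ish2 libraries. FBN2 stood at 36.4 TPM, MEG3 at 11.8 TPM and EGFR at 10.1 TPM. Of 11 genes listed for fusion-positive tumours, 5 were expressed (45.5%, beside 62.8% of all protein-coding genes), 2 were low and 4 were silent. TFAP2B and OLIG2 had no count, CDH3 and CNR1 were silent, and NOS1 (0.0184 TPM) and ALK (0.181 TPM) were low. ASS1, which makes argininosuccinate, went the other way at 937 to 1108 TPM, and MYCN, FOXF1, POU4F1 and PIPOX lay between 3.04 and 7.50 TPM. These lists were chosen with earlier results of these data known, so their counts are no independent check.

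Of the insulin-like ligands only IGF2 was expressed, at 323 TPM, while IGF1 was silent and INS had no count. Of its receptors, IGF2R, which removes the ligand, stood at 137 TPM, the signalling receptor IGF1R at 21.9 TPM and INSR at 7.03 TPM. Per length IGF2R exceeded IGF1R by 5.78 to 6.59 times. The adaptor IRS1 (41.6 TPM) was far above IRS2 (2.25 TPM), and IRS4 had no count. IGFBP2, a binding protein of the ligand, was the highest of the axis at 789.7 to 931 TPM, while IGFBP1 had no count and IGFBP7 was low. The RNA-binding proteins of fetal tissue IGF2BP1, IGF2BP2 and IGF2BP3 stood at 159, 171 and 128 TPM.

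Of 54 receptor tyrosine kinases, 27 were expressed (50%, beside 62.8% of all protein-coding genes), 15 low and 12 silent. FGFR4 was the highest per length, followed by PTK7 (143 TPM), FGFR1 (127 TPM), EPHA2 (109.7 TPM), RYK (107 TPM) and DDR1 (106 TPM). Of the other FGF receptors, FGFR3 stood at 1.55 TPM, FGFR2 was low at 0.0791 TPM, FGFRL1 stood at 71.5 TPM and the coreceptor KL had no count. ERBB3 (80.8 TPM) and ERBB2 (49.8 TPM) exceeded EGFR (10.1 TPM), and ERBB4 had no count. PDGFRB was expressed at 3.77 TPM and PDGFRA was low at 0 to 0.266 TPM. KIT, KDR and NTRK2 were silent, and FLT3, NTRK3 and EPHA6 had no count. All 13 RAS, RAF, MEK and ERK genes were expressed, with MAP2K1 highest at 584 TPM. NRAS stood at 87.4 to 94.9 TPM and HRAS at 73.2 TPM, and ARAF (42.5 TPM) stood above BRAF (3.75 TPM). DUSP6, a phosphatase induced by ERK signalling, was among the 30 highest genes by CPM.

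Cell cycle genes were almost all on, with 48 of 50 expressed (96%, beside 62.8% of all protein-coding genes) and only TP73 and TP63 low. All 18 proliferation genes were expressed, led by the topoisomerase TOP2A at 445 to 478 TPM and the replication helicase subunit MCM7 at 382 to 503 TPM; MKI67 stood at 134 to 171 TPM. CDK4 (574 TPM) exceeded CDK6 (279 TPM) by 1.81 to 2.23 times per length (a median of 1.07 on the log2 scale, and 0.231 with RefSeq-linked lengths), and CCND3 (375 TPM) exceeded CCND1 (159 TPM) by 2.17 to 2.64 times. CCND2 stood at 53.97 TPM, CDK2 at 107 TPM, CCNE1 at 83.2 TPM and CCNE2 at 9.10 TPM. Inhibitors of these kinases were present too: CDKN2A stood at 151 to 170.3 TPM, CDKN1A at 117 to 173 TPM and CDKN1B at 73.7 TPM, beside RB1 at 28.9 TPM. MYC stood at 173 TPM and MYCN at 7.50 TPM, a ratio per length of 19.1 to 31.4. MDM2 stood at 17.4 TPM. TERT, the telomerase subunit, was expressed at 1.83 to 2.06 TPM beside DKC1 (147 TPM), ATRX (25.6 TPM) and DAXX (103 TPM).

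NT5E, the gene that the hairpins target, stood at 10.6, 12.7 and 12.3 TPM in the ish libraries and 17.3, 16.7 and 15.7 TPM in the ish2 libraries before any induction. All ish2 libraries were above all ish libraries, with means of 16.6 ± 0.833 (SD, n = 3) TPM in ish2 and 11.8 ± 1.13 (SD, n = 3) TPM in ish. NT5E makes adenosine from the AMP that ENTPD1 (CD39) makes from extracellular ATP. ENTPD1 stood at 27.5 to 30.6 TPM, above NT5E per length in 6 of 6 libraries by 1.65 to 2.69 times. Of the other 16 genes listed with NT5E and ENTPD1, inside or outside the cell, 6 were expressed. With NT5E and ENTPD1 that made 8 of 18 (44.4%, beside 62.8% of all protein-coding genes). Adenosine deaminase ADA stood at 77.7 TPM, ADK at 59.7 TPM, PNP at 49.6 TPM, ALPL at 12.8 TPM, ENPP1 at 2.71 TPM and ENTPD8 at 2.31 TPM. CD38 and DPP4 were silent, and ACP3 (listed as ACPP) had no count.

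Of 21 adenosine and P2 receptors 6 were expressed (28.6%), and of 7 nucleoside transporters 4 (57.1%), beside 62.8% of all protein-coding genes. Of the 4 adenosine receptors, ADORA2B (41.5 to 45.5 TPM) and ADORA1 (28.3 to 34.2 TPM) were expressed, ADORA2A was low and ADORA3 was silent. Of the P2 receptors of ATP and related nucleotides, P2RX4 (20.8 TPM), P2RX6 (6.87 TPM), P2RX5 (4.78 TPM) and P2RY11 (4.63 TPM) were expressed, and P2RY10, P2RY12 and P2RY13 had no count. The equilibrative nucleoside transporters SLC29A1 (226 TPM), SLC29A2 (44.5 TPM), SLC29A4 (11.5 TPM) and SLC29A3 (6.71 TPM) were expressed, whereas the concentrative SLC28A1, SLC28A2 and SLC28A3 were silent.

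Markers of 12 other lineages were read for cells or programmes other than muscle. Of 108 marker genes, 25 were expressed (23.1%, beside 62.8% of all protein-coding genes), 34 low and 49 silent. No hepatocyte marker of 7 was expressed, and the 7 together summed to 0.0486 to 0.288 TPM per library. Of 12 blood markers CD68 alone was expressed (4.56 TPM), PTPRC and SPI1 were silent, and the sum was 5.04 to 6.71 TPM. Of 9 endothelial markers TEK alone was expressed (6.20 TPM), PECAM1 and VWF were low, and the sum was 6.76 to 7.72 TPM. KRT18 (49.5 TPM) and KRT8 (1.89 TPM) were the expressed epithelial markers of 12, with EPCAM and CDH1 low. The defining genes PTPRC, SPI1, PECAM1, VWF and ALB each stood at a mean of 0.110 TPM or less.

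The fibroblast list had 5 of 10 expressed, and its sum of 2087 to 2514 TPM was nearly all COL3A1. THY1 stood at 118 TPM, LUM, DCN and TCF21 were low, and FAP had no count. In the neural list TUBB3 (213 TPM), SNAP25 (13.1 TPM), MBP (6.31 TPM) and SYP (3.61 TPM) were expressed, STMN2, ELAVL4 and S100B were silent and OLIG2 had no count. In the cardiac list NKX2-5 (16.6 TPM) and GATA4 (5.80 TPM) were expressed, MYH6 was silent, and TBX5, NPPB and MYL7 had no count. In the cartilage and bone list COL2A1 (39.8 TPM), RUNX2 (10.6 TPM) and SOX9 (5.42 TPM) were expressed, SP7 and ACAN were silent and IBSP had no count. CEBPA (6.46 TPM) was the expressed adipocyte marker of 7, with FABP4 and ADIPOQ without a count, and PMEL (7.06 TPM) and MITF (1.15 TPM) were the expressed melanocyte markers of 6, with TYR without a count. In the smooth muscle list SMTN (20.8 TPM), TAGLN (10.4 TPM) and CNN1 (10.1 TPM) were expressed and MYH11 was low. LIN28B, an RNA-binding protein of early embryos, was the expressed member of the 10 pluripotency and germ-cell genes at 54.6 to 63.2 TPM, with LIN28A, NANOG and SOX2 silent and POU5F1 low.

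Matrix genes were read by chain. Collagen chains held 1.1 to 1.21% of counts, and 29 of 44 were expressed (65.9%, beside 62.8% of all protein-coding genes). COL3A1, the single chain of type III collagen, stood at 1939, 1899 and 1886 TPM in the ish libraries and 2293, 2252 and 2257 TPM in the ish2 libraries. COL1A1 stood at 74.9 to 98.7 TPM, but its partner COL1A2, the second chain of type I collagen, at only 1.32, 1.20 and 1.03 TPM in the ish libraries and 3.62, 1.71 and 1.65 TPM in the ish2 libraries. Per length COL3A1 exceeded COL1A1 by 23.2 to 25.7 times and COL1A1 exceeded COL1A2 by 27.3 to 72.6 times. Replicate 1 of ish2 stood apart from the other 5 libraries for COL1A2. COL4A1, COL5A2, COL4A2 and COL6A1 followed COL3A1 in the family. Laminin chains held 0.354 to 0.426% of counts with 9 of 12 expressed; LAMB1 exceeded LAMB2 per length by 9.24 to 9.89 times. The matrix genes COL3A1, FN1, COL4A1, LAMB1 and COL5A2 were among the 30 highest genes by CPM, beside NES, the intermediate filament of precursor cells.

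**Figure D2:**
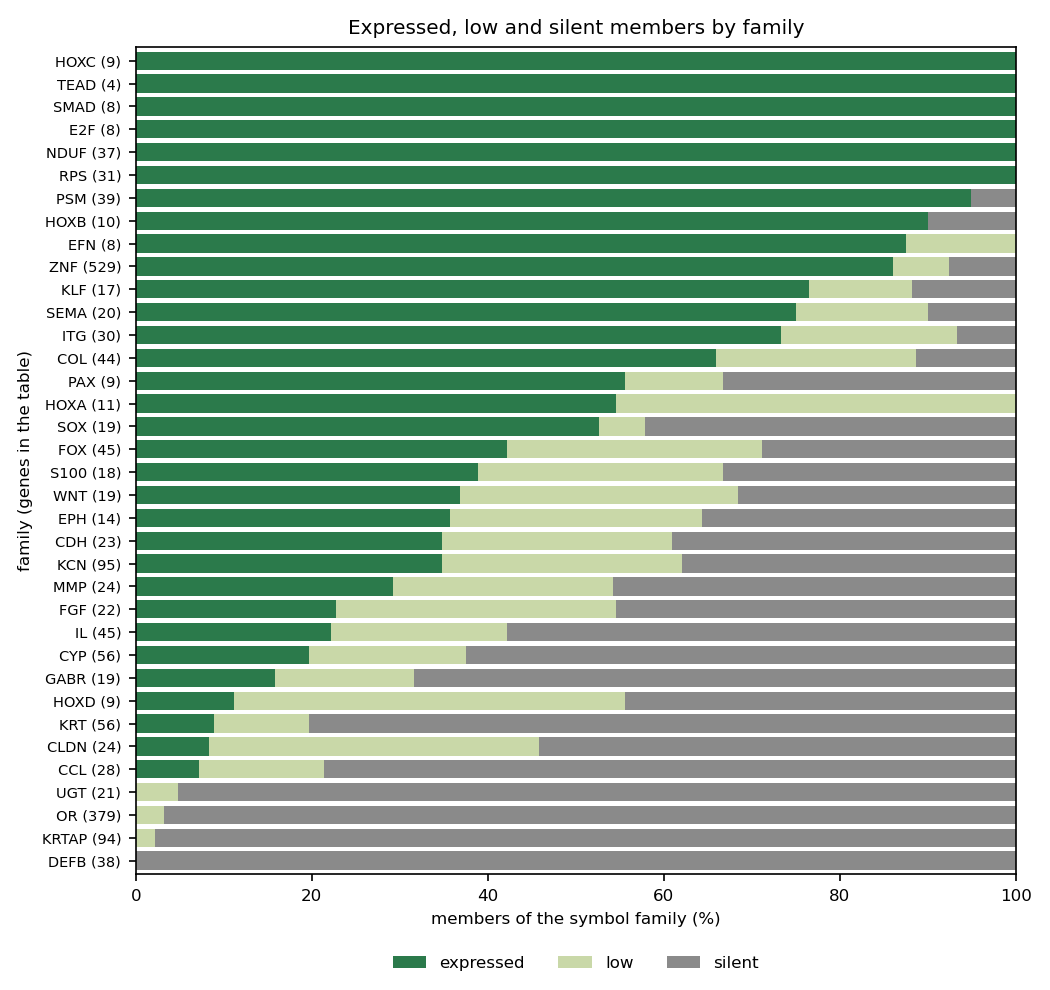
Share of members that were expressed, low or silent in the 6 uninduced libraries, for 36 gene families set by symbol (percent of members on the horizontal axis, number of genes in brackets). Complex I (NDUF) and small-subunit ribosomal proteins (RPS) are expressed throughout, while olfactory receptors (OR), keratin-associated proteins (KRTAP), UDP-glucuronosyltransferases (UGT) and beta-defensins (DEFB) have no expressed member.

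Families set by symbol ran from wholly on to wholly off, with 1226 of 5162 members expressed (23.8%) against 48.6% of all genes. That pooled share is weighed down by noncoding symbols. Of the 5162, 1903 are microRNA symbols (MIR), with 16 expressed (0.841%), and 876 are LINC-numbered RNAs, with 103 expressed (11.8%). All 37 complex I genes and all 31 RPS genes were expressed, as were all members of the SMAD (8), E2F (8), TEAD (4) and NFI (4) factors. Of 529 zinc finger genes named ZNF, 455 were expressed (86%). Olfactory receptors had 0 of 379 expressed and 367 silent, keratin-associated proteins 0 of 94, beta-defensins 0 of 38, all without a count, and UDP-glucuronosyltransferases 0 of 21. Keratins had 5 of 56 expressed, led by KRT18, and claudins, the tight junction proteins, 2 of 24. Of 28 CC chemokines CCL2, which draws monocytes, at 346 TPM and CCL5 were expressed. Of 16 nicotinic receptor subunits 6 were expressed, the muscle subunits above with CHRNA9 and CHRNA5.

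Some silent members sat in families that every cell uses. EIF4A1 and EIF3C, which encode translation initiation factors, had no count in any of the 6 libraries, although 39 of 41 EIF genes were expressed. For EIF4A1, 100% of its exon bases are covered by other genes on the same strand, and EIF3C has a near-identical copy, so their reads may have been set aside as ambiguous or not unique; this was not tested. RPL3L, RPL10L and RPL39L, tissue-restricted relatives of ribosomal protein genes, and PSMA8 and PSMB11, proteasome subunits of testis and thymus, had 1 to 3 counts over the 6 libraries. No exon base of those 5 genes is covered by another gene on the same strand.

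The homeobox clusters differed as blocks. All 9 HOXC genes in the table and 9 of 10 HOXB genes were expressed, HOXB1 being the silent one. HOXA had 6 of 11 expressed and none silent. HOXD had 1 of 9 expressed, 4 low and 4 silent, and the expressed gene was HOXD13, at the end of the cluster, at 21.9 TPM, while HOXD12 and HOXD11 next to it were silent. HOXB2 was the highest HOX gene at 121 TPM and exceeded HOXA3 per length by 67.8 to 103 times. HOTAIR, the noncoding RNA from the HOXC cluster, was expressed at 20.3 TPM, and HOTAIRM1, from HOXA, was low.

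**Figure D3:**
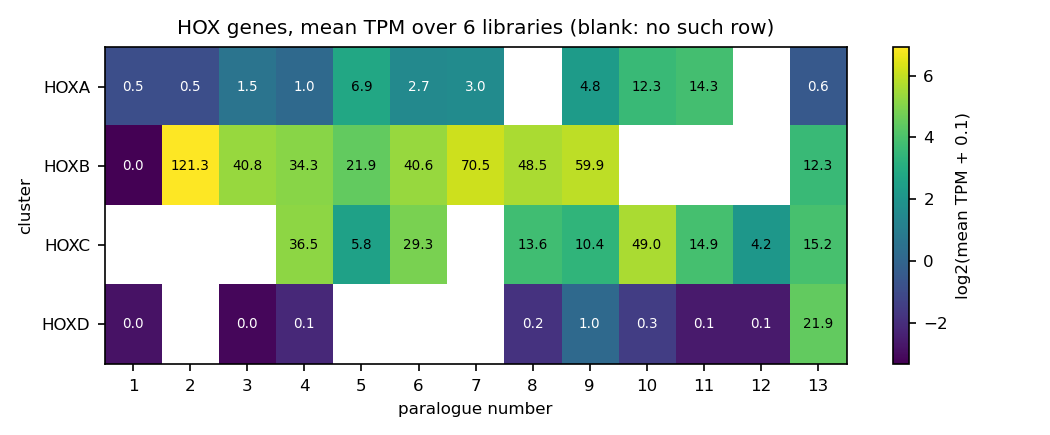
Mean TPM over the 6 uninduced libraries for HOX genes by cluster (rows) and paralogue number (columns); the colour is log2 of mean TPM plus 0.1, and blank cells have no row in the table. HOXB and HOXC are filled, and in HOXD only HOXD13 reached the expressed class.

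Other transcription factor families showed a few dominant members. Among 19 SOX genes SOX8 stood at 419 TPM, and per length it exceeded SOX9 by 66.3 to 98 times. Of the 9 PAX genes, PAX7, PAX3, PAX6, PAX2 and PAX9 were expressed and PAX8, PAX1 and PAX4 were silent. FOXM1, a factor of dividing cells, led 45 forkhead genes at 129 TPM, TBX15 led 13 T-box genes at 89.9 TPM, and LHX2 led 8 LIM homeobox genes at 56.5 TPM. NOTCH3 (203 TPM) exceeded NOTCH1 (89.6 TPM) per length by 2.18 to 2.38 times, and NOTCH4 was low. WNT5A led the WNT ligands at 41.4 TPM, with 7 of 19 expressed, while 8 of 10 Frizzled receptors were expressed.

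Metabolic isozymes were compared per length within each set. LDHB (1713 to 1873 TPM) exceeded LDHA (482 to 596 TPM) by 2.92 to 3.6 times, and LDHC was silent. The brain-type creatine kinase CKB (366 to 461 TPM) exceeded the muscle CKM (20.2 to 43.2 TPM) by 8.6 to 20.3 times, and CKMT2 was low. ENO1 (1493 TPM) exceeded the muscle ENO3 (186 TPM), which in turn stood above ENO2 (23.1 TPM). The muscle forms PYGM (48.6 TPM), PGAM2 (23.9 TPM) and ATP2A1 (74.9 TPM) were expressed below PYGB (155 TPM), PGAM1 (134 TPM) and ATP2A2 (306 TPM). The glucose transporter SLC2A3 (135 TPM) exceeded SLC2A1 (39.9 TPM), the insulin-responsive SLC2A4 stood at 2.08 TPM, and HK1 (185 TPM) exceeded HK2 (28.9 TPM). Among cytochrome oxidase subunits, the common COX6A1 (363 TPM) and COX7A2 (383 TPM) were expressed, and the muscle forms COX6A2 (2.96 TPM) and COX7A1 (0.562 TPM) were low.

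**Figure D4:**
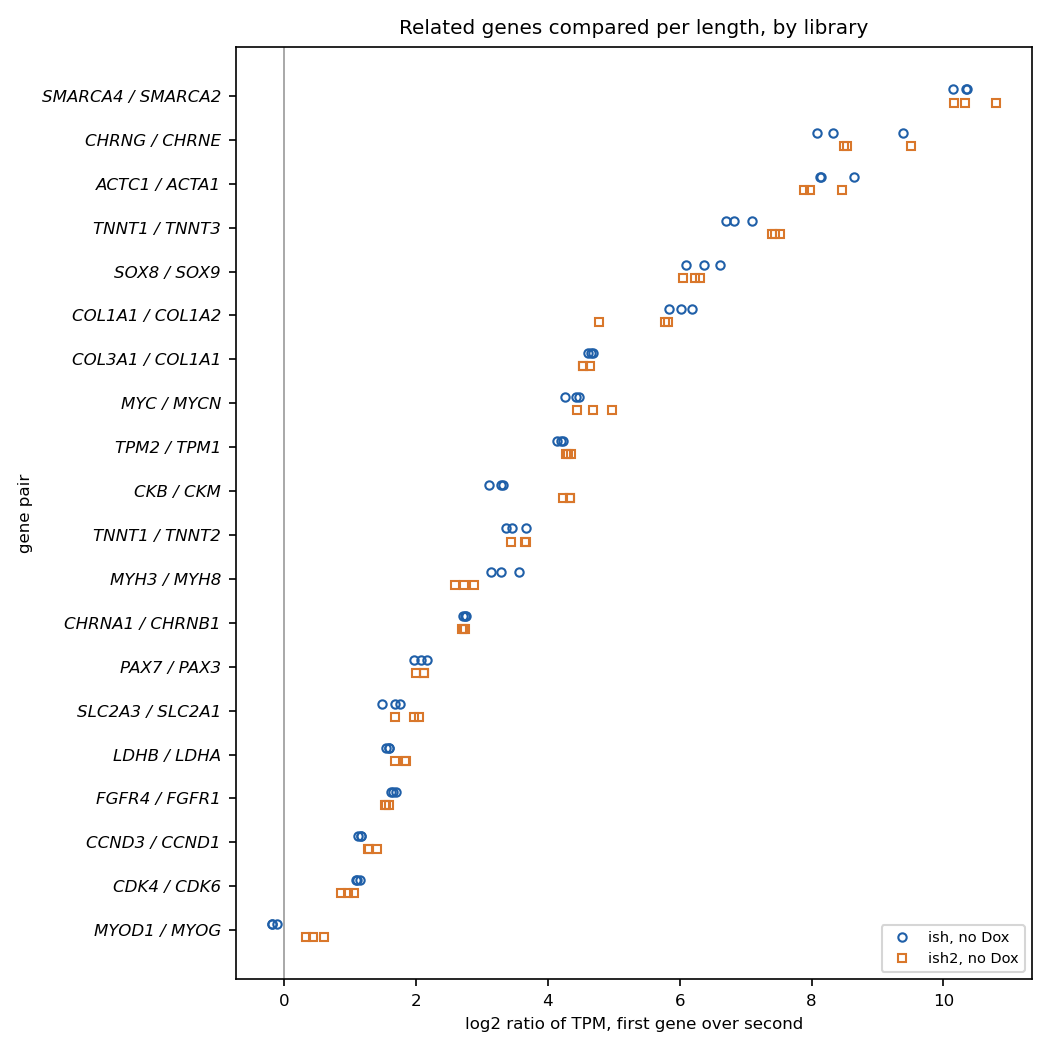
log2 ratio of TPM between 20 pairs of related genes in each uninduced library, circles for ish and squares for ish2; a value above 0 means more of the first gene per length. MYOD1 to MYOG is the pair whose ratio falls on both sides of 0, and the ratio of COL1A1 to COL1A2 is lowest in 1 ish2 library.

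Of 21 imprinted genes, which are copied from the allele of 1 parent, 14 were expressed (66.7%), near the 62.8% of all protein-coding genes. MEST stood at 1439.5 to 1494 TPM, NNAT at 881 to 1338 TPM, GNAS at 843 TPM and PEG10 at 425 TPM. H19, the noncoding neighbour of IGF2 that is usually expressed from the other parent's allele, had no count in any of the 6 libraries, while IGF2 stood at 323 TPM. PEG3, DLK1 and RTL1 were low. SNRPN was silent, but it shares exons with SNURF, so its reads may have been set aside as ambiguous; this was not tested.

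Of 21 cancer-testis antigens, 6 were expressed (28.6%, beside 62.8% of all protein-coding genes) and 14 were silent. PRAME stood at 381 to 399 TPM and CTAG2 at 271 to 293 TPM, followed by MAGEA12 (127 TPM), MAGEA3 (103 TPM), MAGEA10 (98.7 TPM) and MAGEA6 (87.2 TPM). MAGEA1, MAGEA4, MAGEC1, MAGEC2 and SYCP1 had no count. CTAG1B, SSX2 and XAGE1B had none either, but near-identical copies exist for them, and for MAGEA3 and MAGEA6, so that the counting may have split or lost their reads.

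Chromatin regulators were nearly all expressed (28 of 30, or 93.3%, beside 62.8% of all protein-coding genes). The alternative motor proteins of the SWI/SNF complexes were far apart: SMARCA4 stood at 129.8 to 138 TPM and SMARCA2 was low at 0.0779 to 0.118 TPM, a ratio of 1135 to 1775 in the 6 libraries. HDAC1 (411 TPM), CHD4 (263 TPM), EZH2 (98.7 TPM) and DNMT1 (150.4 TPM) were expressed, and DNMT3L was silent. Of 16 genes of the BCL2 family 13 were expressed (81.2%), with MCL1 (267 TPM) and BCL2L1 (80.8 TPM) above BCL2 (1.20 TPM). Of 26 surface proteins read as targets of therapy or immune cells, 19 were expressed (73.1%), among them CD276 (116 TPM) and B2M (868 TPM). CD274, which encodes PD-L1, was low at 0.725 to 1.17 TPM, as were GPC3 (1.20 TPM) and the death receptor FAS (0 to 0.185 TPM), and CD40 was silent. Of 20 long noncoding RNAs listed by name, 18 were expressed (90%). Of all genes typed as long intergenic, antisense or processed transcript RNA, 13.2%, 20.4% and 35.4% were expressed. The list thus does not stand for long noncoding RNAs at large. It was led by the small nucleolar RNA hosts GAS5 (571 to 911 TPM), SNHG5 (345 TPM) and ZFAS1 (311 TPM). The hosts SNHG1 (180.3 TPM), SNHG8 (165 TPM) and SNHG6 (106 TPM) came next. TUG1 (102 TPM), DANCR (88.8 TPM), the muscle RNA LINCMD1 (29.8 TPM) and MALAT1 (23.8 TPM) followed.

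Promoter windows of expressed and silent genes differed in their letters. Among 13034 genes with exactly 1 RefSeq window, the median number of CG pairs in 300 bases was 27 for 7230 expressed genes (quartiles 20 and 35), 13 for 1948 low genes and 5 for 3856 silent genes (quartiles 2 and 15). TATAAA, on either strand, was in 4.88% of expressed, 12.7% of low and 19.8% of silent windows. CAGCTG was in 17.4% of expressed and 17.5% of silent windows, and CAGGTG, on either strand, in 17.4% of expressed and 23.3% of silent windows. The olfactory receptor windows had a median of 1 CG pair over 285 genes, and TATAAA was in 79.7% of 79 keratin-associated protein windows. The windows of CHRNA1, CHRND and CHRNE hold 3, 14 and 6 CG pairs and that of MYOG 11.

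Without Dox, few expressed genes differed in size between the constructs, although many did not overlap. Across 12862 expressed genes the median absolute log2 fold between construct means was 0.0825, while the median coefficient of variation between replicates was 2.95% in ish and 4.02% in ish2. Only 3 genes differed by 2-fold or more (0.0233% of expressed genes): RN7SK, NECAB2 and MIR210HG, named after their values were seen, and all lower in ish2. At 1.5-fold or more there were 118 (0.917%), and the 3 and 3 libraries did not overlap for 5392 (41.9%). No test was run on these differences.

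Of the 378 expressed members of the gene lists, 10 were past 1.5-fold (2.65%, beside 0.917% of all expressed genes), 7 of them lower in ish2 and 3 higher. Of the 91 expressed members of the 3 muscle lists, 5 were past 1.5-fold, all lower in ish2. These lists hold the myogenic regulators with their repressors, the junction and fusion genes, and the contractile genes with nonmuscle forms. CKM is not among them, being listed with the isozymes. Without a size limit, however, all ish2 libraries lay above all ish libraries for 30 of the 91 and below for 28. Over all lists they lay above for 121 of 378 and below for 91. Among all expressed genes 41.9% did not overlap in either direction, a smaller share than in the muscle lists or in all lists. The cause was not tested. CKM, which encodes the muscle creatine kinase, stood at 22.1, 20.7 and 23.9 CPM in the ish libraries and 11.04, 12.8 and 12.5 CPM in the ish2 libraries. MYLPF stood at 165, 149 and 161 CPM in the ish libraries and 97.5, 109 and 108 CPM in the ish2 libraries and TNNI1 at 98.9, 85.6 and 97.5 CPM in the ish libraries and 59.3, 61.1 and 66.1 CPM in the ish2 libraries. The constructs did not overlap for these genes, and MYBPH, TNNC2, TNNI2 and IGFBP5 were the others lower in ish2. MYLPF, TNNC2, TNNI1 and TNNI2 lay close to the limit, with ratios of ish2 to ish of 0.63 to 0.706 with 1 library left out, and each was under 1.5-fold without at least 1 of the libraries. CCND2, EPHA3 and COL1A2 were higher in ish2. For COL1A2 the fold of 1.95 was 1.42 without ish2 replicate 1, so its place past 1.5-fold rests on that library. Among genes with a mean CPM of 10 or more, the genes of largest fold towards ish included CKM, IGFBP5, MYBPH, TSPEAR-AS1, UNC45B, VGF, SOX4, CDH11 and HIC1, with a fold of 1.84 for CKM. Towards ish2 they included PAPPA, CHAC1, MME, CLU, SESN2, LTBP1, TRPV3, CCND2, MYO5B and KLF2, with a fold of 1.92 for PAPPA.

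**Figure D5:**
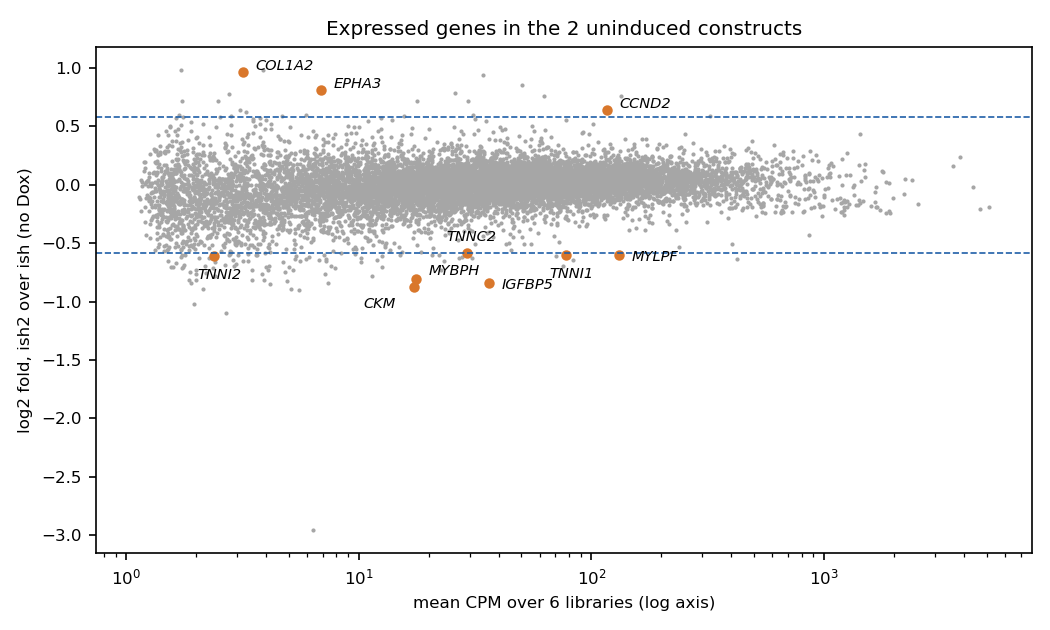
log2 fold of construct means, ish2 over ish without Dox, against mean CPM (log axis) for the 12862 expressed genes; dashed lines mark 1.5-fold and filled points the 10 list members past it. The muscle genes CKM, MYBPH, MYLPF, TNNC2, TNNI1 and TNNI2 lie below the lower line.

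With Dox most genes stayed in their class. Of the 12862 genes expressed without Dox, 97.7% stayed at 1 CPM or more in each ish library with Dox and 98.5% in each ish2 library with Dox. In ish with Dox, the silent genes DGKB, LRTM1 and UNQ6494 reached the expressed class at 1.23 to 2.37 CPM, and the expressed C3AR1 and LHFPL1 were in the silent class. In ish2 with Dox no gene moved between these 2 classes.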

How the data were processed

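The authors deposited unnormalised counts for each gene symbol in 12 stranded mRNA libraries, sequenced as 75-base paired-end reads per the labels. Per the submitters' processing notes, the tools were STAR 2.7.3a, Trim Galore 0.6.4, Subread 1.6.3 and featureCounts on GRCh38, without roles or order; the sources used here give no annotation or strand setting for the counting. The last 5 rows of the table hold unassigned reads and were left out: of all reads listed, 11.6 to 12.1% per library had no feature and 2.59 to 2.67% were ambiguous. The groups came from the sample titles. In the table's headers the hairpins are Sh1 and Sh2, of which Sh1 was read as ish.

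CPM without Dox used TMM factors over the 6 libraries (edgeR 4.0.16, R 4.3.3, factors 0.993 to 1.01). CPM of the libraries with Dox used TMM factors over all 12 libraries (0.986 to 1.009), while the classes without Dox kept the first scaling. TPM used the union exon length of GENCODE v29 (GRCh38). Of the symbols, 23899 matched by current name, 699 by an older symbol or synonym, and 1887, with 0.325% of counts, did not match and have no TPM. Expressed, low and silent were set at 1 and 0.1 CPM. DESeq2 1.42.0 gave size factors only. No contrast was tested, so there are no p-values. The classification was tested on simulated data, with genes planted well above 1 CPM or without counts. That test says nothing of genes near the limits. The members and the lists were chosen with earlier results of these data known.

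Named genes are the identity markers, the 30 highest genes per length and by CPM, all members of a role with up to 8 members and the 6 highest of longer roles with members that were silent, up to 5 of a symbol family, 10 long noncoding RNAs, and the 10 largest folds each way between constructs at a mean of 10 CPM or more. Promoter windows and their coordinates are from RefSeq (GRCh38.p14), and motifs were chosen with results known. A few genes that this rule names are not reported here.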

Additional observations from a re-analysis of the deposited data

Results flagged for a closer look

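Each of 45 genes described by library was examined over the 6 uninduced libraries for 1 library far from the other 5, and 3 genes met the rule. Chance meets it in about 1 of 20 groups if the 6 values share 1 normal spread. The 2 constructs did not overlap for 41.9% of expressed genes, so that rate is only a guide. The 3 of 45 are not read as an excess over it. COL1A2, the second chain of type I collagen, stood at 6.46 CPM in ish2 replicate 1, with the next library at 3.1 CPM and the lowest at 1.87 CPM. TOP2A, a topoisomerase of dividing cells, stood at 916 CPM in ish2 replicate 3, with the next library at 877 CPM and the lowest at 858 CPM. MEST, an imprinted gene, stood at 1628 CPM in ish2 replicate 3, with the next library at 1672 CPM and the highest at 1687 CPM.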

How the results depend on the processing

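The number of expressed genes ran from 12084 (CPM of at least 2) to 13569 (CPM of at least 0.5) over all alternatives, against 12862. The number of silent genes ran from 9379 to 10599, except that asking for no count in any of the 6 libraries gave 6224, fewer by construction. Expressed family members ran from 1125 to 1312, against 1226. A TPM of 1 in place of a CPM of 1 gave 6 CC chemokines against 2, 5 bitter taste receptors against 2 and 90 microRNA symbols (MIR) against 16. At 2 CPM no bitter taste receptor and 2 DLX factors, against 4, were expressed, and at 0.5 CPM 5 bitter taste receptors and 5 smooth muscle markers, against 3. Differences between constructs of 1.5-fold or more numbered 107 to 144 with 1 library left out and 35 at a mean CPM of 10 or more, fewer genes being read.

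Taken from ish or ish2 alone, mean levels moved by more than 1 SD: MYOD1 was 112 and 134 CPM, DES 306 and 317 CPM, IGF2 779 and 725 CPM, and FGFR4 431 and 391 CPM, in that order. Of 1218 gene levels with another scaling all 1218 stayed within 1 SD, and of 3654 with 1 library left out 3569 did. Of 1218 taken from 1 construct alone, only 770 stayed within 1 SD and 448 moved. Of 78 log2 ratios between genes with other lengths, 38 stayed within 1 SD, 39 moved and that of HDAC1 to HDAC2 reversed, to -0.242 with RefSeq-linked lengths, an alternative chosen after seeing the data. With those lengths 8 of 38 ratios moved by more than 1.5 times, among them TPM2 to TPM1 (4.26 to 1.93), CCND3 to CCND1 (1.22 to 2.12), ENTPD1 to NT5E (1.07 to 2.35) and SMARCA4 to SMARCA2 (10.3 to 9.38); 3 of 40 did with the longest transcript. Of the 30 highest genes per length, 23 were shared with RefSeq-linked lengths and 30 with the longest transcript. The cause was not tested. A gene without a count may still be present at up to 0.0934 to 0.113 CPM, by library. No paired analysis was possible because no contrast was tested, so there is no fit to which a replicate block could be added.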
